A study of Callithrix jacchus with 4 samples.

Results

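Cadherins are calcium-dependent adhesion molecules that span the cell membrane and bind cadherins on neighboring cells. Classical cadherins, which comprise the type I and type II groups, are tied to the actin skeleton inside the cell through catenins. Protocadherins share the extracellular repeats but carry other intracellular domains. The δ-protocadherins are encoded by separate genes, and the clustered protocadherins by arrays of neighboring genes that give single neurons different combinations. In the cortex both families are known for layer-restricted and cell-type-restricted expression, for the sorting of axons and synapses, and, in vessels, for the junctions between endothelial cells.

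The members were all genes listed in both deposited UMI tables whose symbol is CDH followed by a number or starts with PCDH. This gave 31 of 16383 genes, 19 cadherins and 12 protocadherins, which together held 0.354% of the UMIs (unique molecular identifiers, 1 per captured RNA molecule). By subfamily there were 3 type I cadherins (CDH1, CDH2, CDH3), 13 type II cadherins (CDH5 to CDH12, CDH18, CDH19, CDH20, CDH22 and CDH24), 3 cadherins outside these groups (CDH13, CDH17, CDH23), 8 δ-protocadherins (PCDH1, PCDH7, PCDH8, PCDH9, PCDH10, PCDH17, PCDH18, PCDH19), 2 further protocadherins (PCDH12, PCDH15) and 2 clustered protocadherins (PCDHB2, PCDHGC4). The retinal cadherin CDH4 and PCDH11X were not listed by symbol in both tables. A further entry, listed by identifier, carries the name CDH23 in the gene table, so values of CDH23 below cover the entry listed by symbol only.

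Single-nucleus RNAseq was performed on the primary visual cortex (V1) of adult common marmosets (*Callithrix jacchus*) in 2 cohorts. The injured cohort was 3 animals, 1 library each, given endothelin-1 (ET-1), a vasoconstrictor that causes focal ischemia, in V1 of the left hemisphere 7 days earlier. They are called injured 1 (F1619), injured 2 (F1565) and injured 3 (F1711). The control was 1 library pooled from 3 adult marmosets without a lesion. No genetic modification was made in either cohort. Gray matter of the V1 operculum was taken, which in the injured animals held the lesion core together with the tissue around it. Nuclei isolation (pulverization and a sucrose ultracentrifuge step against Dounce homogenization and sorting of DAPI-positive nuclei), sequencing facility, sequencer and doublet removal all differed between the cohorts. These differences and the ischemia cannot be told apart in any comparison of injured with control.

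The libraries held 7500, 12527, 9510 and 8610 nuclei in the order injured 1, injured 2, injured 3 and control, with a median of 2117 UMIs per nucleus in the control and 3531 to 4504.5 in the injured libraries. Between 15 and 27 cell barcodes were shared by any pair of libraries. The deposited annotation named 7 cell types: excitatory neurons (ExN), inhibitory neurons (InN), astrocytes (Astro), oligodendrocyte precursor cells (OPC), oligodendrocytes (Oligo), microglia and endothelial cells (Endo). The last 2 rested on few control nuclei, 129 microglia against 7733 in the injured cohort and 181 Endo against 4444.

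The Endo label went against its markers for many nuclei. In the injured cohort 2005 of 4444 Endo nuclei (45.1%) belonged to 1 deposited cluster, number 19, whose summed level of excitatory neuron markers (SYT1, RBFOX3, GRIN2A, CUX1, CUX2) was 5698 CPM (UMIs of a gene scaled to a total of 1e6) against 184 CPM for endothelial markers (FLT1, IGFBP7, SLC2A1). A further 15.9% of injured Endo nuclei and 85.6% of the control ones lay in clusters in which fibroblast markers (LAMA2, DCN, COL1A1, COL1A2, COL6A3) exceeded endothelial markers. The group is therefore called Endo nuclei below, and its values are also given without the neuron-led cluster. Small neuron-led clusters labelled Astro, Oligo or microglia, of 21 to 68 nuclei each, were left out in the same alternative.

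Levels were computed as CPM of the UMIs summed over all nuclei of a cell type in a library. They are compared between cell types and libraries. Levels of different genes are not set against each other, because counting from the 3′ end captures genes unequally. Each set of 4 values below runs injured 1, injured 2, injured 3 and then control. Cell types had been assigned by clustering these same counts, so the cell type of highest level is a description without a test.

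The cell type of highest level was the same in all 4 libraries for 16 of the 31 members, and in all 3 injured libraries for 25. Of those 16, the excitatory neurons led for CDH18, CDH22, CDH24 and PCDH7, the inhibitory neurons for CDH7, CDH9 and CDH13, the OPCs for PCDH15, PCDH17, PCDHGC4 and CDH23, the oligodendrocytes for CDH8, CDH19 and PCDH9, and the Endo nuclei for CDH1 and CDH5. Some of these leads were narrow. In the control the leading cell type was 1.02 times the next for PCDH17, 1.05 times for PCDHGC4 and 1.08 times for PCDH7. For PCDH17, CDH18 and CDH24 the injured values of the leading and the next cell type overlapped. By the mean of the injured libraries OPCs led for 9 members, ExN for 7, InN and Endo for 5 each, Oligo for 4, Astro for 1 and microglia for 0. In the control library microglia led for 3.

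**Figure D1:**
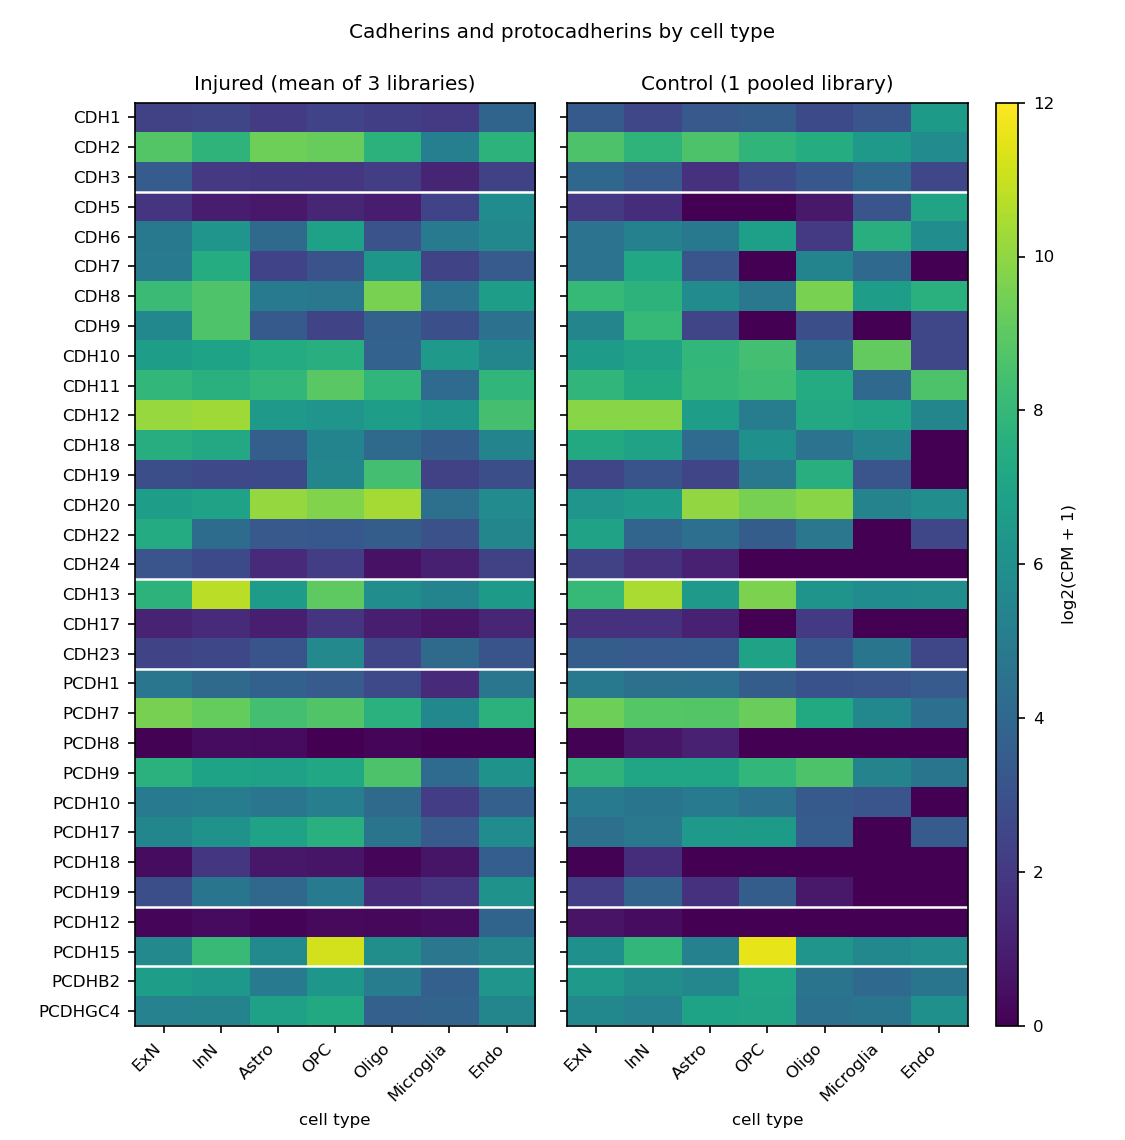
Level of each of the 31 members (rows, ordered by subfamily with white lines between subfamilies) in the 7 cell types (columns), as log2(CPM + 1), with the mean of the 3 injured libraries on the left and the control library on the right. PCDH15 stands out in OPCs, CDH13 in inhibitory neurons and CDH20 in astrocytes and oligodendrocytes in both panels, while PCDH8 is near 0 throughout.

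Among type I cadherins, CDH2 (N-cadherin, the main neural cadherin) was broadly detected. In astrocytes it measured 602, 642 and 729 CPM against 402 in the control, and in OPCs 545, 551 and 662 against 230. In excitatory neurons it measured 415, 500, 396 and 403 CPM. CDH2 was thus highest in astrocytes in every injured library, and about level between astrocytes and excitatory neurons in the control. CDH1 (E-cadherin, the epithelial cadherin) had its highest level in Endo nuclei, at 7.94, 12.1 and 21.4 CPM in the injured libraries and 93.1 in the control. Within the Endo nuclei it followed the clusters with high fibroblast markers, at 104 CPM (19 UMIs) in control cluster 15 and 54.0 in injured cluster 20, against 3.6 in injured cluster 14, the one with the highest summed endothelial markers.

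The type II cadherins did not share a cell type. Their 13 members had their highest injured mean in 5 different cell types. CDH9, a synaptic cadherin, was an inhibitory neuron gene at 494, 365, 376 and 266 CPM, with an injured mean 8.60 times that of the next cell type. CDH22 was an excitatory neuron gene at 144, 182, 176 and 121 CPM, 3.82 times the next. CDH19, which marks cells of the glial lineage, measured 329, 397, 299 and 182 CPM in oligodendrocytes, 7.63 times the next. CDH5 (VE-cadherin, the adhesion molecule of endothelial junctions) measured 43.9, 70.2, 53.3 and 127 CPM in Endo nuclei, 13.1 times the next.

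CDH8 and CDH20 were shared between lineages. CDH8 led in oligodendrocytes at 713, 893, 696 and 780 CPM, and was followed by inhibitory neurons at 451, 342, 438 and 217. CDH20 measured 1335, 1587, 1128 and 936 CPM in oligodendrocytes and 1013, 1105, 1136 and 1067 in astrocytes. The order of those cell types for CDH20 was therefore not the same in every library: oligodendrocytes led in injured 1 and injured 2, and astrocytes in injured 3 and the control. CDH12 was similarly undecided between neurons, with 1215, 1168, 1054 and 921 CPM in ExN and 1296, 1348, 1088 and 920 in InN. CDH11, best known from mesenchymal cells, was highest in OPCs of the injured libraries at 420, 519 and 499 CPM against 305 in the control, where Endo nuclei led at 407.

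CDH13 (T-cadherin, which is anchored to the membrane by a lipid and lacks an intracellular domain) measured 1785, 1570, 1796 and 1438 CPM in inhibitory neurons, 3.28 times the next cell type. The protocadherin PCDH15, known for the tip links of hair cells, measured 2419, 2354, 2289 and 2969 CPM in OPCs. PCDH15 was among the markers by which the OPC clusters had been named, so its OPC level is no finding. In inhibitory neurons, where it was not used, PCDH15 measured 323, 230, 280 and 247 CPM. PCDH12, an endothelial protocadherin, measured 7.52, 14.0 and 19.8 CPM in injured Endo nuclei, 41.1 times the next cell type, and had 0 UMIs in the 181 control Endo nuclei, where the floor of 3 UMIs corresponds to 14.7 CPM.

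Among δ-protocadherins, PCDH7 was highest in excitatory neurons at 749, 761, 746 and 650 CPM. PCDH9 was highest in oligodendrocytes at 359, 407, 439 and 398 CPM, a factor of 2.01 over the next cell type. PCDH17 was highest in OPCs at 177, 248, 160 and 90.9 CPM. These 3 genes thus led in 3 different cell types. PCDH10, known from the basal ganglia and limbic circuits, was nearly flat across neurons, astrocytes and OPCs, with 29.6, 32.2, 29.2 and 29.5 CPM in ExN and 33.4, 33.4, 34.5 and 21.4 in OPCs. PCDH19, the gene of an X-linked epilepsy, was highest in Endo nuclei of all injured libraries at 61.4, 69.7 and 82.0 CPM and had 0 UMIs in those of the control, where inhibitory neurons led at 13 CPM. PCDH8, a protocadherin linked to synaptic activity, had 14 UMIs in all and entered no test. Of the clustered protocadherins, PCDHGC4 was highest in OPCs at 169, 144, 153 and 128 CPM, while PCDHB2 was spread over neurons and OPCs.

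The injured animals differed from each other, and the difference had a common side. Over the 166 combinations of member and cell type with at least 10 UMIs in each injured library, the median coefficient of variation between the 3 animals was 15.9%. Injured 2 had the highest level of the 3 in 99 of these 166 (59.6%), whereas over all genes it was highest in 32.4% of 80623 combinations. Injured 1 was highest in 15.1% of the member values against 38.2% over all genes. The excess of injured 2 was widest in microglia, at 79.2% against 35.7%, and in oligodendrocytes, at 73.7% against 36.9%. These are counts over related genes in the same libraries and were not tested.

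PCDH17 varied most among the members measured in all 7 cell types, with a median coefficient of variation of 38.9%, and injured 2 was highest in 7 of 7. In excitatory neurons PCDH17 measured 34.0, 72.9 and 26.9 CPM in the injured animals. PCDHGC4 varied least, at 4.46%. Injured 2 also led for CDH22 in 6 of 6 cell types and for CDH6, CDH18 and PCDH7 in 6 of 7. Injured 2 was the library with the most nuclei and the lowest median UMIs per nucleus of the injured cohort, and the part of depth in this pattern was not tested.

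The comparison of injured with control asked which members changed in each cell type 7 days after ET-1. Tests were made with edgeR's quasi-likelihood test on the summed UMIs of the 3 injured libraries and the 1 control library, adjusted by Benjamini-Hochberg over all genes tested in that cell type. A call required an adjusted p below 0.01 and, on the natural log scale, a change of more than 0.25 in either direction. The gene also had to have a UMI in 10% or more of the nuclei of 1 of the cohorts. With 1 control library, the spread between control samples is not measured and is assumed to equal that between the injured animals.

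Called changes in the family were few and all were increases: CDH8 and PCDH17 in inhibitory neurons, and CDH2, CDH12, PCDH7 and PCDH19 in Endo nuclei. No member was called in the other 5 cell types, and 3 of the 4 Endo calls were lost without the neuron-led cluster. In inhibitory neurons 2 of 27 members tested were called, where 3.41% of all genes were (2.2% as higher). In Endo nuclei 4 of 29 were called, where 6.18% of all genes were (4.19% as higher). The called genes were 0 of 28 in ExN (background 3.85%), 0 of 24 in Astro (1.5%), 0 of 24 in OPC (0.0697%), 0 of 24 in Oligo (0.774%) and 0 of 27 in microglia (0%). At an unadjusted p below 0.05 the numbers were 10 in ExN, 13 in InN, 4 in Astro, 7 in OPC, 8 in Oligo, 4 in microglia and 16 in Endo. Over all genes that limit was passed by 6085 of 15122 in ExN, 4518 of 12984 in InN and 3735 of 12445 in Astro. It was passed by 2279 of 11476 in OPC, 3582 of 11631 in Oligo, 2857 of 13470 in microglia and 4366 of 13205 in Endo. DESeq2 also called 0 members in ExN, Astro, OPC and Oligo, but 2 in microglia.

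In inhibitory neurons, PCDH17 measured 67.8, 86.1 and 59.8 CPM in the injured libraries and 26.9 in the control. All 3 injured libraries lay well above the control. Its log2 fold change was 1.51 ± 0.26 (SE, adjusted p = 0.00519, edgeR). CDH8 measured 451, 342 and 438 CPM against 217, a log2 fold change of 1.01 ± 0.18 (adjusted p = 0.00635, edgeR). Both calls depended on the nuclei and animals used. PCDH17 was not called without injured 1 (adjusted p = 0.0117, edgeR) or with nuclei thinned to 1000 UMIs (adjusted p = 0.0147, edgeR). CDH8 was not called in edgeR without injured 1 (adjusted p = 0.0198), without injured 3 (adjusted p = 0.0161) or with only nuclei of at most 2500 genes (adjusted p = 0.0121).

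The same direction was seen within the 2 main classes of inhibitory neurons, as far as marker UMIs assigned nuclei to them. Nuclei with at least 2 UMIs of LHX6 and none of ADARB2, a class that descends mainly from the medial ganglionic eminence, had 569, 255, 574 and 188 CPM of CDH8. Nuclei with the reverse pattern, which descend mainly from the caudal ganglionic eminence, had 272, 283, 239 and 165. For PCDH17 the values were 41.6, 65.3, 31.7 and 30.9 in LHX6 nuclei and 81.4, 124, 71.7 and 47.4 in ADARB2 nuclei. All 3 injured libraries were above the control in each class for each gene, but for PCDH17 in LHX6 nuclei injured 3 was within 1 CPM of the control. Those PCDH17 values in LHX6 nuclei rested on 15, 51, 11 and 11 UMIs. LHX6 nuclei were 11.3%, 10.7%, 7.20% and 7.12% of all inhibitory neurons, and ADARB2 nuclei 29.6%, 22.9%, 24.5% and 21.2%. Most inhibitory neurons were thus in neither class. The share of LHX6 nuclei in the pair of classes was 27.6%, 31.8%, 22.7% and 25.2%. Over all inhibitory neurons the subclass marker SST measured 57.4, 50.7, 77.6 and 12.3 CPM and VIP 61.4, 50.8, 77.4 and 6.16. PVALB measured 26.5, 54.3, 27.3 and 61.3, and LHX6 77.8, 98.2, 63.3 and 120. Subclass markers thus moved in both directions beside PCDH17 and CDH8, and their part in those values was not tested.

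Other inhibitory neuron members missed the call. CDH6 measured 63.8, 89.4, 70.0 and 37.9 CPM (log2 fold change 1.08, adjusted p = 0.0159, edgeR), and CDH9 had a log2 fold change of 0.72 (adjusted p = 0.0273, edgeR). DESeq2 called both. Without injured 2, edgeR called both as well, so that 4 members were called in inhibitory neurons. That fit also called 12.2% of all genes, against 3.41% with all libraries. Counting members with at least 10 UMIs in a library, all 3 injured libraries exceeded the control for 17 of 28 in InN, where 31.2% of all genes did so. The median log2 fold change of the tested members was 0.41, beside 0.00 over all genes.

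**Figure D2:**
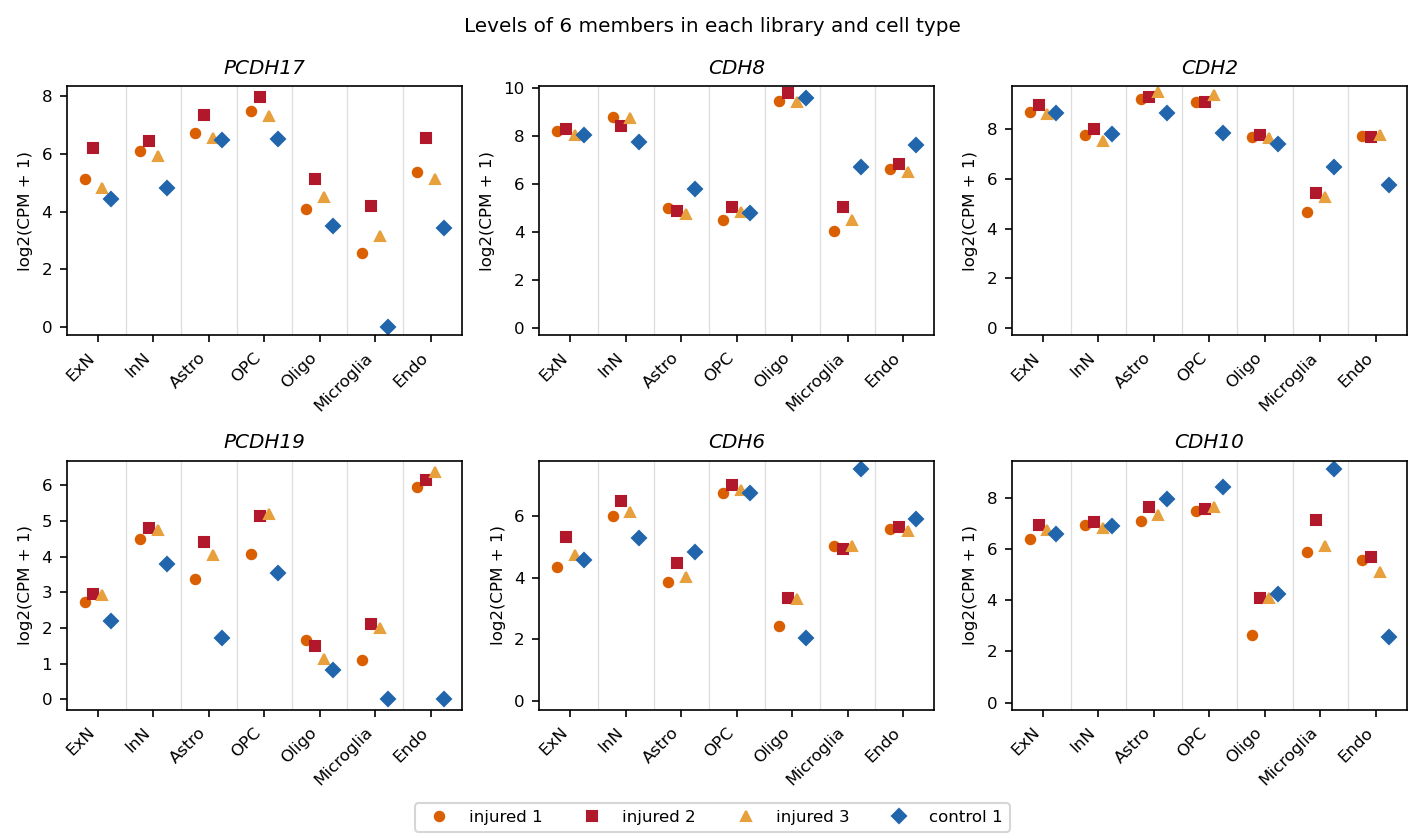
Levels of PCDH17, CDH8, CDH2, PCDH19, CDH6 and CDH10 as log2(CPM + 1) in each of the 7 cell types, with 1 point per library (3 injured, 1 control). PCDH17 is above the control in every injured library and cell type, though control microglia held no UMI of it. CDH6 and CDH10 fall far below the control in microglia.

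PCDH17 was the only member with at least 10 UMIs in a library in all 7 cell types whose 3 injured libraries exceeded the control in all 7. Control microglia held no UMI of PCDH17 and control Endo nuclei held 2, so the control level is poorly known in both. Outside inhibitory neurons PCDH17 was not called. In OPCs it measured 177, 248 and 160 CPM against 90.9, in oligodendrocytes 15.9, 33.9 and 21.5 against 10.2, and in astrocytes 105, 162 and 91.9 against 89.0. In astrocytes injured 3 was within 3 CPM of the control. In ExN it was called only when injured 3 was left out, together with CDH20, which made 2 calls where there were 0 with all libraries. The share of all genes called in ExN then went from 3.85% to 6.11%. PCDH19 was higher in the injured libraries in the 6 of 6 cell types in which it could be compared. Among these, control microglia and control Endo nuclei held no UMI of PCDH19.

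In astrocytes, OPCs and oligodendrocytes no member was called. CDH2 came nearest in astrocytes (log2 fold change 0.82, adjusted p = 0.0465, edgeR) and in OPCs (1.48, adjusted p = 0.0464, edgeR), and was called in OPCs when either injured 2 or injured 3 was left out. Those fits called 7.25% and 2.61% of all genes in OPCs, against 0.0697% with all libraries. The OPC values for the control rested on 171 nuclei. In oligodendrocytes CDH19 measured 329, 397 and 299 CPM against 182, which did not pass the call (log2 fold change 1.01, adjusted p = 0.0270, edgeR). In astrocytes the balance was the other way, with all 3 injured libraries below the control for 15 of 24 members, where 41.5% of all genes were. Without the neuron-led clusters they were below it for 11 of 24, where 37.6% of all genes were. Over all astrocytes PCDH7 measured 316, 385 and 315 CPM against 443, and CDH10 136, 199 and 163 against 246. Median nucleus depth in astrocytes was 1183 UMIs in the control and 2903 to 5279.5 in the injured libraries, and summed excitatory neuron markers were 2015 CPM in the control and 912 to 1020 in the injured libraries. PCDH7 (log2 fold change -0.28) and CDH10 (-0.46) were at -0.36 and -0.61 without the neuron-led clusters, and were not called either way. The part of depth in these values was not tested.

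In microglia most members measured less in the injured libraries than in the control, though none was called. All 3 injured libraries were below the control for 20 of 27 members, where 39.5% of all genes were. Over all microglia, summed excitatory neuron markers were 1135, 1208 and 1196 CPM in the injured libraries and 1615 in the control. Median nucleus depth was 3930, 2428 and 3183 UMIs against 793. The part of these differences in the lower member values was not tested. CDH10 measured 59.1, 141 and 69.8 CPM against 562 in the control (70 UMIs), a log2 fold change of -2.40 that was not called (adjusted p = 0.0967, edgeR). CDH6 measured 31.8, 30.1 and 32.1 CPM against 185 (23 UMIs), a log2 fold change of -2.32 (adjusted p = 0.0282, edgeR). DESeq2 called both, and so did edgeR without injured 2, where 2.96% of all genes were called. With all libraries edgeR called 0 of 13470 genes in microglia, 2857 had an unadjusted p below 0.05, and DESeq2 called 304.

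The CDH10 and CDH6 signal of injured microglia lay in 1 of the deposited clusters. In cluster 21 (1798 nuclei) CDH10 measured 179, 506 and 187 CPM in the 3 injured libraries and CDH6 measured 95.7, 92.5 and 82.7. In cluster 6 (3698 nuclei) CDH10 measured 7.2, 14.7 and 7.1 CPM, and in cluster 16 (2216 nuclei) 8.3, 30.0 and 22.3. In each injured library cluster 21 thus lay above the other 2 for CDH10, and below the control. The microglial receptor gene P2RY12 measured 259 CPM in injured cluster 21, 142 in cluster 6, 26.3 in cluster 16 and 233 in the control microglia, which formed a single cluster. Another microglia marker, CD74, differed between cluster 21 and the control, at 617 CPM against 8.03. It measured 1300 CPM in cluster 6 and 1884 in cluster 16. The summed microglia markers of the study were 2289 CPM in cluster 21, 2562 in cluster 6, 3087 in cluster 16 and 1784 in the control. The summed level of peripheral immune markers (PTPRC, CD3E, ITGAL, MRC1, F13A1) over all microglia was 2896, 1950 and 2643 CPM in the injured libraries and 1141 in the control. That of endothelial markers was 143, 174 and 172 against 570, all of it FLT1 in the control, where the other 2 markers were at 0. Within injured microglia FLT1 measured 278 CPM in cluster 21, 36.1 in cluster 6 and 74.5 in cluster 16. In cluster 21 IGFBP7 was at 22.1 CPM and SLC2A1 at 10.2. The summed level of fibroblast markers over all microglia was 54.0, 36.5 and 76.0 against 281, of which LAMA2 made 265, with COL1A1 and COL1A2 at 0 in the control. The part of these differences in the CDH10 and CDH6 values was not tested.

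**Figure D3:**
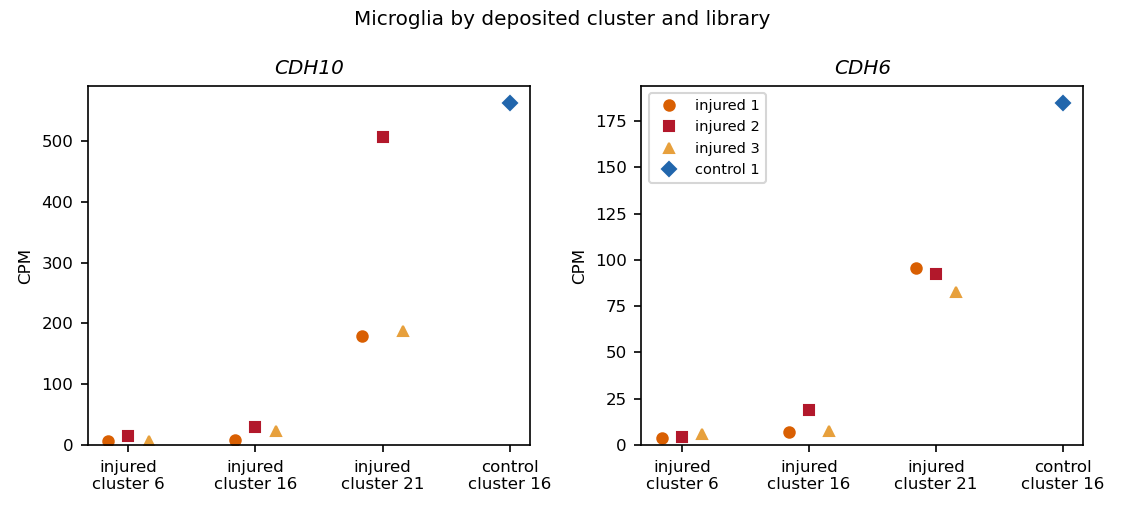
CPM of CDH10 and CDH6 in microglial nuclei by deposited cluster of the injured cohort and in the control cluster. Injured cluster 21, with pooled levels of 254 CPM for CDH10 and 90.7 for CDH6, lies between the control (562 and 185) and the other main injured clusters, which are at or below 18.8 CPM.

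In Endo nuclei the called increases were large. CDH12 measured 410, 373 and 270 CPM in the injured libraries against 44.1 in the control (9 UMIs), a log2 fold change of 3.1 ± 0.44 (SE, adjusted p = 0.00241, edgeR). PCDH7 measured 205, 232 and 185 CPM against 19.6 (4 UMIs), with 3.51 ± 0.44 (adjusted p = 0.00163, edgeR). CDH2 measured 210, 208 and 221 CPM against 53.9, with 2.09 ± 0.31 (adjusted p = 0.00299, edgeR). Injured and control values were far apart for each of the 3 genes, and each was highest in the neuron-led cluster of the injured cohort. In that cluster CDH12 was at 988 CPM against 72.6 in cluster 14 and 114 in cluster 20. PCDH7 was at 532 against 79.3 and 87.5, and CDH2 at 408 against 170 and 61.2. Cluster 20 was led by fibroblast markers, as were most control Endo nuclei. In cluster 20 the CDH2 level was near the 53.9 CPM of the control, while the CDH12 and PCDH7 levels were above those of the control.

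Without the neuron-led cluster, 477 of 1021, 935 of 1735 and 1027 of 1688 injured Endo nuclei were left. CDH12 then measured 74.6, 97.9 and 113 CPM, with a log2 fold change of 1.31 (adjusted p = 0.0690, edgeR). PCDH7 measured 59.2, 96.2 and 91.2 CPM (2.28, adjusted p = 0.0347, edgeR), and CDH2 140, 109 and 171 CPM (1.56, adjusted p = 0.0307). All 3 injured libraries stayed above the control for these 3 genes, and none of the 3 was called. The part of the difference in endothelial and fibroblast makeup in their values was not tested. PCDH9, with a log2 fold change of 1.61 over all Endo nuclei, turned to -0.10.

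PCDH19 was the Endo call that remained. It had 0 UMIs in 181 control Endo nuclei, which allows up to 14.7 CPM at 3 UMIs, so that the pooled injured level was at least 4.96-fold higher. The edgeR adjusted p was 0.00447. Without the neuron-led cluster the injured libraries measured 84.9, 90.8 and 102 CPM, a level at least 6.42-fold higher, and the gene was still called (adjusted p = 0.00129, edgeR). It was highest in cluster 14 at 116 CPM, against 43.8 in cluster 20 and 14.9 in the neuron-led cluster. Cluster 14 was led by endothelial markers. Of the control Endo nuclei 85.6% lay in a cluster led by fibroblast markers, and 26 nuclei lay in one led by endothelial markers. In those 26 nuclei 3 UMIs correspond to 146 CPM, above the 116 CPM of injured cluster 14. The count of 0 UMIs there thus gives no lower bound for nuclei led by endothelial markers. Both bounds above set groups of unlike makeup against each other. The part of this difference in makeup in the PCDH19 values was not tested. The call was lost with DESeq2 (adjusted p = 0.0197), with nuclei thinned to 1000 UMIs (edgeR, adjusted p = 0.0183) and with only nuclei of at most 2500 genes, where the p passed but the share of nuclei with a UMI did not.

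The vascular cadherin CDH5 was lower in all 3 injured libraries, at 43.9, 70.2 and 53.3 CPM against 127, without a call (log2 fold change -1.06, adjusted p = 0.0928, edgeR). Without the neuron-led cluster CDH5 was closer to the control, at 66.2, 96.5 and 67.9 CPM against 127. By cluster it measured 94.8 CPM in injured cluster 14 and 2.0 in the neuron-led cluster. In the control it measured 125 CPM (23 UMIs) in cluster 15, led by fibroblast markers, and 146 (3 UMIs) in cluster 22, led by endothelial markers. Most control UMIs of CDH5 thus lay in a cluster unlike injured cluster 14 in its leading markers. CDH1 had a log2 fold change of -2.59 (adjusted p = 0.0218, edgeR), with UMIs in 6.08% of nuclei at most, under the 10% limit. CDH11 measured 216, 225 and 271 CPM against 407. Without the neuron-led cluster CDH1 measured 11.6, 12.1 and 25.4 CPM against 93.1, and CDH11 221, 229 and 280 against 407. Over the Endo nuclei, summed endothelial markers were 3461, 3608 and 4154 CPM in the injured libraries and 848 in the control, and summed fibroblast markers 2140, 1321 and 2362 against 5390. The part of this difference in makeup in the values of CDH1, CDH5 and CDH11 was not tested.

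All 3 injured libraries were above the control for 20 of 29 members in Endo, where 49.6% of all genes were. The median log2 fold change of tested members was 2.09 against 0.26 over all genes. However, 8 of the 29 had 0 UMIs in the control. These 8 could not lie below it and are all among the 20. With them set at the bound given by 3 UMIs the median was 0.02. Without the neuron-led cluster all 3 injured libraries were above the control for 18 of 28 members, where 45.3% of all genes were. Without injured 2, edgeR called 7 members in Endo, adding CDH5 and CDH8 as lower and PCDHB2 as higher. That fit also called 12.7% of all genes, against 6.18% with all libraries.

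**Figure D4:**
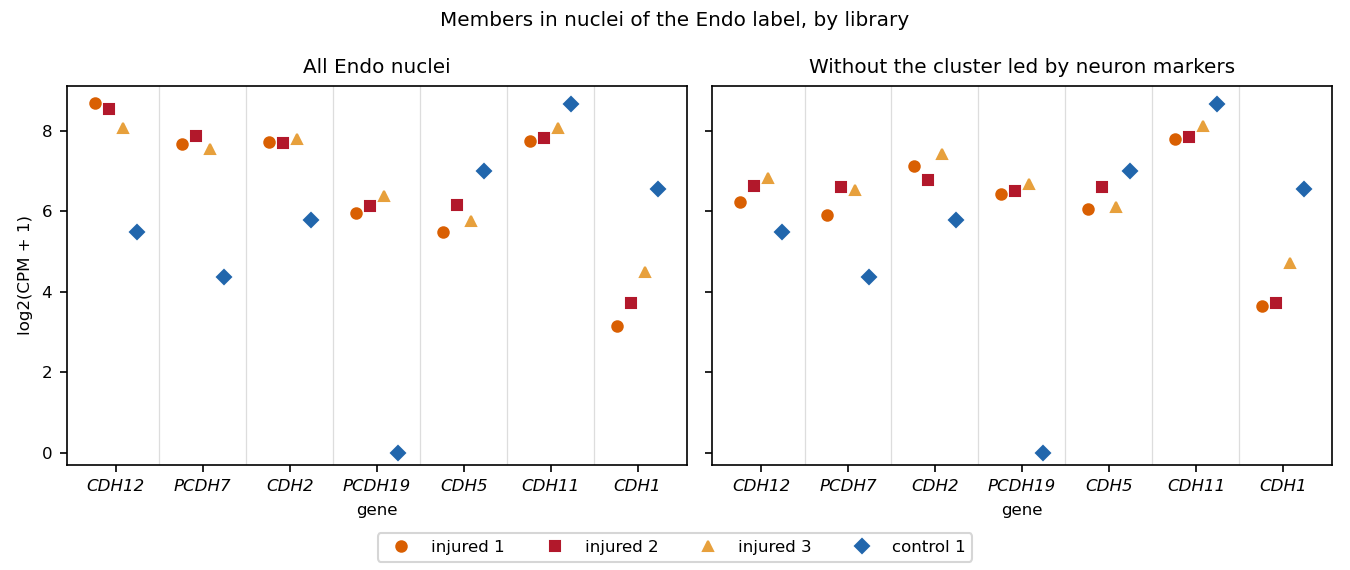
Level of 7 members in Endo nuclei per library, over all nuclei and without the neuron-led cluster of the injured cohort. Over all nuclei the injured libraries lie at 270 to 410 CPM for CDH12 and 61.4 to 82.0 CPM for PCDH19, and without the cluster at 74.6 to 113 and 84.9 to 102 CPM.

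A call in 1 cell type and not in another does not show that the cell types differ, so the difference itself was tested with library as a block. Of 30 members tested, 5 had a difference between injured and control that varied by cell type (edgeR, adjusted p below 0.01). Of all genes 6.54% did. Ischemia and the preparation of the cohorts cannot be told apart in this test either. The 5 members were, with their edgeR p-values, CDH12 (adjusted p = 0.000319), CDH6 (0.00154), CDH10 (0.00360), CDH8 (0.00564) and CDH2 (0.00644). The levels moved to different sides. CDH6 was above the control in injured InN and below it in injured microglia, CDH2 was above it in Astro, OPC, Oligo and Endo and below it in microglia, and CDH8 was above it in InN and below it in Endo (99.5, 113 and 91.2 CPM against 196). Without the neuron-led clusters CDH6, CDH8 and CDH10 were still called, and CDH12 (adjusted p = 0.0377, edgeR) and CDH2 (adjusted p = 0.0345, edgeR) were not. Without injured 1 the members called were 2, CDH6 and CDH12, and without injured 3 they were 2, CDH12 and PCDH7. Of all genes, 2.36% were called without injured 1 and 2.82% without injured 3. Between ExN and InN 0 members differed by edgeR (background 0.0135%). At an unadjusted p below 0.05 there were 3 members, beside 451 of 14772 genes. Between Oligo and OPC 0 members differed by edgeR (background 0.0745%). There 4 members had an unadjusted p below 0.05, beside 1660 of 14772 genes.

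Members were called between classes of neurons in 14 of 27 tests in excitatory and 15 of 21 in inhibitory neurons. Classes were read from marker UMIs within each library, so every library served as its own control, and the 4 libraries gave 4 pairs. Among excitatory neurons, nuclei with at least 2 UMIs of CUX2 (a gene of upper layers) and none of FOXP2 (a gene of deep layers) were compared with the reverse. Among 27 members tested, 14 were called with library as a block, 3 higher in CUX2 nuclei and 11 higher in FOXP2 nuclei, where 9.64% of all genes were called (4.98% and 4.66%). Without the block 6 were called. The classes held 823 to 2206 CUX2 nuclei and 183 to 332 FOXP2 nuclei per library.

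CDH13 was the member most enriched in CUX2 nuclei, at 216, 305, 302 and 298 CPM against 41.1, 40.6, 40.0 and 100 in FOXP2 nuclei, a log2 difference of 2.45 ± 0.15 (SE, adjusted p = 4.58e-09, edgeR). CDH22 measured 196, 236, 234 and 166 CPM against 56.6, 72.4, 70.5 and 49.5, with 1.73 ± 0.08 (adjusted p = 8.48e-11, edgeR). CDH18 was the other member higher in CUX2 nuclei, by 0.67 ± 0.08. For each of these the classes did not overlap across the libraries.

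On the FOXP2 side, PCDH17 measured 67.6, 129, 58.5 and 42.8 CPM against 21.3, 45.2, 13.8 and 9.78 in CUX2 nuclei, a log2 difference of -1.77 ± 0.12 (adjusted p = 1.16e-08, edgeR). The ranges overlapped across libraries, since injured 2 was high in both classes, but within each library FOXP2 nuclei had the higher level. CDH11 measured 400, 500, 480 and 425 CPM against 166, 167, 210 and 157 (-1.38 ± 0.07). CDH6 (-1.62 ± 0.20), CDH10 (-1.44 ± 0.11), CDH8 (-1.19 ± 0.10) and CDH7 (-1.0 ± 0.14) were also higher in FOXP2 nuclei. CDH9 was less even (-1.5 ± 0.28), at 37.5, 127, 37.0 and 109 CPM against 24.1, 26.8, 36.4 and 18.8, so that in injured 3 the classes were nearly equal, and the call was lost without injured 2 and with DESeq2. Smaller differences were called for PCDH10, CDH20, PCDH9 and PCDH7, between -0.80 and -0.52. The CDH20 call was lost in 5 of 9 alternatives, among them DESeq2, library size alone and leaving out injured 1 or injured 3 (adjusted p up to 0.252). By subfamily, 7 type II cadherins and 4 δ-protocadherins were higher in FOXP2 nuclei, against 2 type II cadherins and 0 δ-protocadherins in CUX2 nuclei.

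Among inhibitory neurons, 45 to 117 LHX6 nuclei and 118 to 251 ADARB2 nuclei per library were compared. Of 21 members tested, 15 were called with library as a block, 8 higher in LHX6 nuclei and 7 higher in ADARB2 nuclei, where 16% of all genes were called (7.92% and 8.06%). CDH7 measured 169, 238, 208 and 171 CPM in LHX6 nuclei against 38.7, 40.6, 36.4 and 42.5 in ADARB2 nuclei, a log2 difference of 2.36 ± 0.16 (adjusted p = 1.54e-13, edgeR). CDH18 measured 194, 154, 202 and 118 CPM against 50.7, 59.2, 40.5 and 58.9, with 1.67 ± 0.17. The classes were apart in every library for both. CDH6 (1.19 ± 0.23), PCDH15 (1.01 ± 0.14) and PCDH7 (1.0 ± 0.11) followed, and CDH2, CDH8 and PCDH9 were called at 0.53 to 0.68. The CDH6 call was lost without injured 2, that of CDH8 without injured 1 or injured 3, and that of PCDH9 without injured 1 or injured 2, each also with DESeq2.

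CDH20 showed the widest class difference of the called members, at 336, 405, 271 and 271 CPM in ADARB2 nuclei against 47.2, 32.0, 26 and 28 in LHX6 nuclei (-3.31 ± 0.17, adjusted p = 3.11e-16, edgeR). CDH10 measured 193, 252, 220 and 221 CPM against 83.3, 64.0, 37.5 and 39.3 (-1.96 ± 0.17). CDH13, like CDH7 and CDH9 highest in inhibitory neurons in every library, was present in both classes. It was higher in ADARB2 nuclei, at 2610, 2692, 2830 and 3076 CPM against 1107, 1365, 1552 and 791 (-1.23 ± 0.12). PCDH19 (-1.10 ± 0.31), PCDHB2 (-0.96 ± 0.20), CDH12 (-0.96 ± 0.11) and PCDH17 (-0.91 ± 0.19) were also higher there. The PCDH19 call was lost in 6 of 9 alternatives, among them leaving out any 1 library (adjusted p up to 0.214), and that of PCDH17 in 3, among them leaving out injured 2 and DESeq2. CDH9, although highest in inhibitory neurons, was not called between the classes (-0.36, adjusted p = 0.0299, edgeR). Without the block 8 members were called.

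The binding partners and relatives of the family were counted from a list of 28 genes, comprising catenins and their associates, the cadherin-cutting proteases, atypical cadherins and calsyntenins. Injured against control, 4 of 21 tested were called in Endo nuclei (6.18% of all genes) and 0 in each of the other 6 cell types by edgeR, with 2 to 9 per cell type at an unadjusted p below 0.05. Among all genes, those at that limit ran from 2279 of 11476 in OPC to 6085 of 15122 in ExN. DESeq2 called CLSTN3 in ExN and CDHR3, CLSTN1 and CTNNA1 in microglia. The Endo calls were CTNNB1 (β-catenin, which links cadherins to α-catenin, log2 fold change 1.62), CTNND2 (δ-catenin of neurons, 1.34), CLSTN3 (a synaptic calsyntenin, 3.71) and CLSTN1 (-1.12). CTNND2 and CLSTN3 were not called without the neuron-led cluster.

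Between neuron classes 7 of 22 partners were called in excitatory neurons (9.64% of all genes) and 6 of 19 in inhibitory neurons (16% of all genes). CTNND1 (p120 catenin, which holds cadherins at the membrane, 1.06), the large atypical cadherin FAT3 (0.99) and CTNNB1 (0.48) were higher in CUX2 nuclei, and CLSTN2 (-1.25), CDHR3 (-1.11), PKP4 (-0.90) and AFDN (-0.67) in FOXP2 nuclei. In inhibitory neurons DCHS2 (-4.74), FAT4 (-3.23), FAT3 (-2.32) and CTNNB1 (-1.03) were higher in ADARB2 nuclei, and CLSTN3 (0.55) and CLSTN1 (0.38) in LHX6 nuclei. CTNNB1 in excitatory neurons was called in 5 of 9 alternatives, CLSTN3 in 4 and CLSTN1 in 2. DCHS2 and FAT4 belong to the families of Dachsous and Fat, which bind each other.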

How the data were processed

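The authors aligned 10x Genomics 3′ v3 single-nucleus libraries to the marmoset genome calJac3 with Ensembl 91 annotation using Cell Ranger 3.1.0 and processed each cohort with Seurat. They deposited, per cohort, a table of raw UMI counts per gene and nucleus with cluster and cell type labels. The authors describe doublet removal with Scrublet in the injured cohort and with a filter at 2500 genes per nucleus in the control cohort. Of the 8610 control nuclei in the deposited table, 7418 had at most 2500 genes, so that filter does not hold for all of them. No further nucleus was removed here.

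Within each library, the UMI counts of all nuclei of a cell type were added up, over the 16383 genes in both tables. Injured and control sums were tested with edgeR 4.0.16 in R 4.3.3 (quasi-likelihood test, TMM factors, filterByExpr), and the adjusted p is Benjamini-Hochberg over all genes tested. Whether the difference between injured and control varied by cell type was tested over all 28 sums with library as a block. Neuron classes needed at least 2 UMIs of 1 marker and none of the other. They are paired because both classes of a library come from the same animal or pool, and library was a block in those fits. The injured samples are separate animals, but the control is 1 pool. Floors and counting limits, 3 UMIs for a count of 0, cover counting error only. Scripts were tested on simulated data. Alternatives were DESeq2 1.42.0, RLE factors, library size alone, no filter, thinning to 1000 UMIs, nuclei with at most 2500 genes, 1 UMI for the class limit, leaving out each library and, chosen after seeing the data, leaving out neuron-led clusters (excitatory neuron markers above those of the labelled type; 1 marker of that list is not reported here and was not used). Genes of known role, the 3 members of highest CPM per cell type (a choice of names only), all called members and the 5 largest per direction between classes were named. CDH4 and PCDH11X, also of known role, were not in both tables by symbol. The members and lists were chosen with earlier results of these data known. No sequence or coordinate is printed, since no genome of the authors' build was used here. Gene order was read from RefSeq's calJac240_pri assembly by symbol, which matched 30 of the 31 members.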

Additional observations from a re-analysis of the deposited data

Results flagged for a closer look

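The difference between injured and control varied by cell type for 5 members, by an edgeR test with library as a block. Ischemia and the preparation of the cohorts cannot be told apart in that test. The adjusted p was 0.000319 for CDH12, 0.00154 for CDH6, 0.00360 for CDH10, 0.00564 for CDH8 and 0.00644 for CDH2, and each gene's levels are given in the report. CDH12 and CDH2 were not called without the neuron-led clusters.

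UMIs were also counted for family genes outside the members. CDH16, listed in the injured table only, had 7 UMIs in all, too few to be read as a level and without a control value. A gene listed by the identifier ENSCJAG00000016415, which the gene table names PCDH20, measured 7.14, 14.0 and 8.79 CPM over all nuclei in the injured libraries and 3.42 in the control, and was above the control in 7 of 7 cell types. A gene listed as ENSCJAG00000034339, named CDH23 in that table, measured 11.8, 9.73 and 9.93 CPM against 0.832, and was above the control in 6 of 7 cell types. Over all nuclei the control held 78 UMIs of the PCDH20 entry and 19 of this CDH23 entry. Their control levels in single cell types thus rested on few UMIs, and the counts of cell types above the control are weak where control nuclei were few. The CDH23 listed by symbol was below the control in 6 cell types, for example 5.44, 3.65 and 4.19 CPM against 10.5 in excitatory neurons. The 2 entries lay on opposite sides of the control in ExN, InN, Astro, Oligo and microglia. In Endo nuclei both were above it. In OPCs the entry listed by symbol was below it, and the other was not above it in all injured libraries. Whether the 2 CDH23 entries are parts of 1 gene model was not determined, so neither direction can be read as that of the whole gene. PCDH11X, also listed by identifier, measured 28.5, 40.6 and 28.4 CPM against 38.6, and PCDHA9 131, 181 and 149 against 196.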

How the results depend on the processing

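Of 862 values of 95 gene results under alternatives, 734 kept their side of the call, 97 lost it, 30 gained it and 1 reversed. The reversal was PCDH9 in Endo nuclei, which went from 1.61 to -0.10 without the neuron-led clusters. Most of the 95 were followed because they had an adjusted p below 0.05 in the main edgeR fit, and the alternatives reused the same libraries. Tests of any difference between cell types carry no direction and could not reverse. The counts are therefore no independent measure of stable direction. Over the 7 cell types 6 members were called injured against control. The number was 16 at an adjusted p below 0.05, 3 without the neuron-led clusters and 4 to 14 when an injured library was left out. Leaving out an injured library also moved the share of all genes called, to 1.87% to 12.2% in InN and 3.88% to 12.7% in Endo. At an adjusted p below 0.05, 6 were called in InN and 1 each in Astro, OPC, Oligo and microglia. The shares of all genes in these cell types were 11%, 7.16%, 1.19%, 4.32% and 2.58%. In InN 4 were called by DESeq2, 1 after thinning, 1 with nuclei of at most 2500 genes and 0 to 4 without an injured library. In microglia DESeq2 called 2. Leaving out an injured library gave 0 to 2 calls in ExN, 0 to 1 in OPC, 0 to 2 in microglia and 4 to 7 in Endo, where leaving out the neuron-led cluster gave 1. The difference between injured and control varied by cell type for 5 members, for 3 without the neuron-led clusters, and for 2 to 5 without an injured library.

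No paired analysis was possible because the control is 1 pooled library, which shares a replicate number with an injured animal by accession order only. The neuron classes are paired within libraries. With no replicate block 6 members rather than 14 were called between excitatory classes and 8 rather than 15 between inhibitory classes. Scaling by library size alone moved the median of all genes by more than 0.1 in ExN (from 0.00 to -0.11), InN (0.00 to -0.10), Astro (0.05 to -0.06), OPC (0.17 to 0.04), Endo (0.26 to 0.14) and microglia (0.42 to 0.17). Of all genes called, those higher then went from 393 of 582 to 263 of 527 in ExN, 285 of 443 to 248 of 521 in InN, 140 of 187 to 138 of 239 in Astro and 553 of 816 to 355 of 619 in Endo, while the members called stayed 6 in number. The control held only 129 microglia, 171 OPCs and 181 Endo nuclei, which limits the precision there.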

Other observations

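The cell types of highest level were also read along the genome. In RefSeq's gene order 7 pairs of members had no other protein-coding gene between them, and in 0 of the 7 was the cell type of highest injured mean the same. The share among pairs that are not neighbors was not computed. Since the leads were spread over several cell types, pairs can differ wherever they lie, and the count is no result about neighbors. The longest run was CDH6, CDH9, CDH10, CDH12 and CDH18, 5 type II cadherins in a row, which were highest in OPC, InN, OPC, InN and ExN. CDH7 (InN) lay beside CDH19 (Oligo), CDH8 (Oligo) beside CDH11 (OPC), and CDH3 (ExN) beside CDH1 (Endo). This is a description of these libraries, in which some of the orders rest on small differences.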
